A study of Mus musculus with 3 samples.

Results

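The genes described here are 44 mouse genes of DNA replication and mitosis, out of 21887 protein-coding genes in the annotation. They were chosen by name for their known roles. Of the 44, 23 act before or during DNA synthesis and are called S-phase members, and 21 act in chromosome segregation and cell division and are called M-phase members. Each gene was followed through its gene-end peaks, the ATAC-seq peaks within 1000 bp of either annotated end of the gene, and through all peaks in the gene body and 10000 bp on either side, its locus. ATAC-seq marks open chromatin by the cuts a transposase makes in accessible DNA.

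There were 3 libraries, 1 per group. Seh1cKO cells, which carry a conditional knockout of Seh1 (gene Seh1l), a component of the nuclear pore complex, were taken on day 1 of culture with T3 (triiodothyronine) at 60 nM, a thyroid hormone under which cultured progenitors begin to differentiate. Control cells, wild type per the labels, were taken after the same day 1 of T3, and control cells were also taken as progenitors, a stage whose label was read as day 0. All cells came from the cortex of C57BL/6 pups of postnatal day 4 to 7. They were isolated by immunopanning, in which cells bind to antibody-coated plates, with an antibody to GalC and then an antibody to O4. Progenitors grew with the mitogens PDGF-AA (20 ng/ml), bFGF (20 ng/ml) and NT3 (1 ng/ml), and these 3 factors were withdrawn when T3 was added, so the hormone and the loss of mitogens cannot be told apart. The Cre driver, the deleted part of Seh1l and the number of animals per library are not given in the sources used here. With 1 library per group no comparison has a replicate check, and differences are given as ratios with no test.

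Before S phase, Cdc6 and Cdt1 load the ring of MCM proteins on replication origins, and geminin (Gmnn) restrains Cdt1 so that each origin is used a single time per cycle. Cyclin E with Cdk2 starts synthesis, and E2F transcription factors drive many S-phase genes. Genes of mitosis are commonly controlled through CCAAT boxes, bound by NF-Y, and through the cell cycle genes homology region (CHR) element, bound by the DREAM and MuvB complexes. DREAM keeps these genes silent in resting cells. Oligodendrocyte progenitors divide, and leave the cell cycle as they differentiate.

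The libraries differed in depth. The headers gave 10845533 fragments in the Seh1cKO library, 18260883 in the control day 1 library and 23403600 in the progenitor library. There were 46113 peaks in Seh1cKO cells, 118441 in control cells at day 1 and 108788 in progenitors, and the lowest pileup called was 6, 8 and 9 fragments in these 3 libraries. Of 8 oligodendrocyte lineage markers, 6 had a gene-end peak in Seh1cKO cells, 7 in control cells at day 1 and 7 in progenitors, and Cspg4 had none in any library. For microglia, endothelial, astrocyte and neuron markers the counts were 2 of 6, 2 of 5, 3 of 4 and 3 of 4 in Seh1cKO cells, 2 of 6, 3 of 5, 3 of 4 and 3 of 4 in control cells at day 1, and 2 of 6, 3 of 5, 3 of 4 and 4 of 4 in progenitors. A gene-end peak shows an open gene end and not expression, so these counts do not measure cell types. The summed pileup of the lineage markers per 1000000 fragments in the header (FPM) was 15.6 in Seh1cKO cells, 18.9 in control cells at day 1 and 20.6 in progenitors. For microglia, endothelial, astrocyte and neuron markers it was 2.49, 2.58, 4.15 and 8.30 in Seh1cKO cells, 4.38, 3.40, 4.00 and 7.83 in control cells at day 1, and 2.26, 3.03, 2.39 and 7.86 in progenitors. The part of other cells in the results was not tested. Seh1l had a gene-end peak of 47 fragments in Seh1cKO cells, 70 in control cells at day 1 and 77 in progenitors, which does not check the deletion because the deleted part is unknown.

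All 44 members had a gene-end peak in the Seh1cKO library, in the control day 1 library and in the progenitor library. Over all protein-coding genes the share with such a peak was 56.2% in Seh1cKO cells, 63.2% in control cells at day 1 and 62.4% in progenitors, and 54.1% had a peak in each of the 3 libraries. The members' strongest gene-end peaks spanned 13 to 160 fragments at the summit in control cells at day 1. Of the 12280 genes within that range 92.7% also had a peak in Seh1cKO cells and 96.0% in progenitors. Those genes all had a peak in control cells at day 1, and why all 44 members had one was not tested.

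Levels are given as the pileup, the number of fragments over the summit of the strongest gene-end peak, per 1000000 fragments (FPM). A pileup counts fragments at a single base and so does not grow with gene length. The median over the 44 members was 3.69 in Seh1cKO cells, 2.88 in control cells at day 1 and 2.39 in progenitors, against 2.86 in Seh1cKO cells, 2.52 in control cells at day 1 and 1.88 in progenitors over all genes with a gene-end peak. S-phase and M-phase members had medians of 3.87 and 3.69 in Seh1cKO cells, 3.12 and 2.68 in control cells at day 1, and 2.48 and 2.39 in progenitors.

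Among S-phase members, Mcm4, a subunit of the replicative helicase, had the highest pileup in control cells at day 1. It had 106 fragments (9.77 FPM) in Seh1cKO cells, 160 (8.76 FPM) in control cells at day 1 and 139 (5.94 FPM) in progenitors. Its peak, at chr16:15637112-15637928 (mm10) in Seh1cKO cells, lies at an end of the gene that is shared with Prkdc, so the signal cannot be assigned to Mcm4 alone. Among M-phase members Ccna2, which encodes cyclin A2, was highest, with 66 fragments (6.09 FPM) in Seh1cKO cells, 129 (7.06 FPM) in control cells at day 1 and 107 (4.57 FPM) in progenitors, at a peak that also lies within 1000 bp of an end of Bbs7. The next levels in control cells at day 1 were close to each other: 5.91 FPM at E2f8, a repressive E2F factor, 5.75 at Cenpf, a kinetochore protein, and 5.59 each at Mcm3 and Ccne1, with exact 95% Poisson intervals that overlap. At the low end stood Ccnb2, which encodes cyclin B2, with 12 fragments in Seh1cKO cells, 13 in control cells at day 1 and 27 in progenitors. Prim1, the catalytic subunit of primase, had 8 in Seh1cKO cells, 14 in control cells at day 1 and 19 in progenitors. Prim1, at 8 fragments in Seh1cKO cells, was near the lowest call of that library, and the intervals of these low genes are wide relative to their level in the plot of pileups by gene. In control cells at day 1 the strongest peak of 6 of the 44 members lay within 1000 bp of another gene's end. Besides Mcm4 and Ccna2 these were Mcm7 (near Ap4m1), Pcna (Cds2), Aurka (Cstf1) and Kif20a (Brd8). The signal at these peaks cannot be assigned to the member alone.

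**Figure D1:**
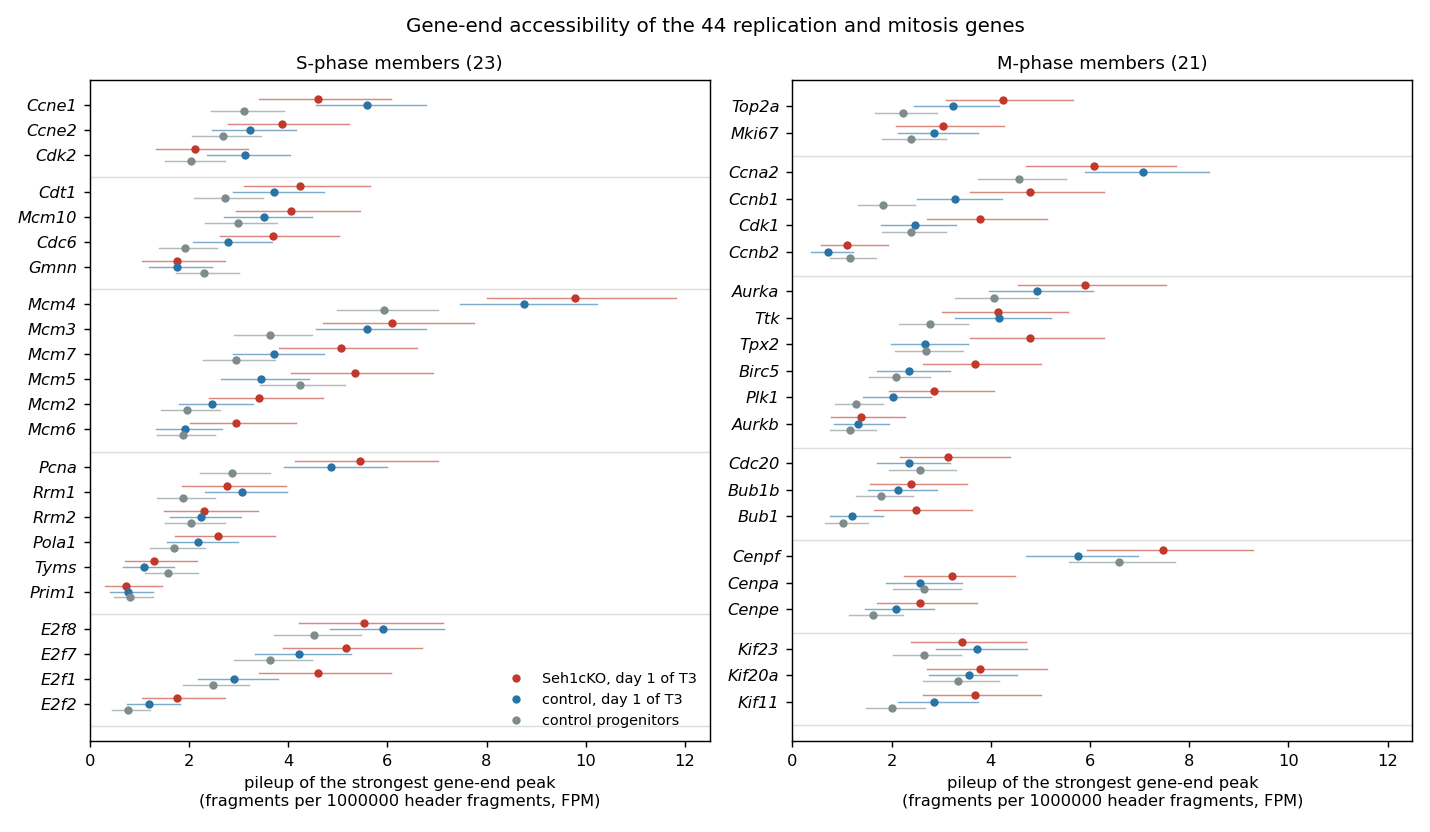
Pileup of the strongest gene-end peak of each member, in FPM (x axis, from 0), for Seh1cKO cells at day 1 (red), control cells at day 1 (blue) and control progenitors (grey). Bars are exact 95% Poisson intervals, which cover counting error only, and genes are grouped by role. Mcm4, Ccna2 and Cenpf stand to the right, in each library, and Ccnb2, Prim1 and Tyms are the lowest in Seh1cKO cells and in control cells at day 1.

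The peaks lay over the starts of the genes. A transcription start was given by RefSeq for 37 of the 44 members, 20 of S phase and 17 of M phase. The summit of the strongest peak was within 300 bp of that start at 34 members in Seh1cKO cells, 32 in control cells at day 1 and 31 in progenitors. Its median position, with upstream positions negative, was -67 bp from the start in Seh1cKO cells, -55 bp in control cells at day 1 and -45 bp in progenitors. The peak covered the start itself at 34 of the 37 in Seh1cKO cells, 33 in control cells at day 1 and 35 in progenitors. Median widths of the strongest peak over the 44 members were 631 bp in Seh1cKO cells, 679 bp in control cells at day 1 and 725 bp in progenitors. Over all peaks of each library the order was the reverse, with medians of 307 bp in Seh1cKO cells, 216 bp in control cells at day 1 and 202 bp in progenitors. M-phase summits kept close to the start: all 17 were within 300 bp in Seh1cKO cells and in progenitors and 16 of 17 in control cells at day 1, against 17, 16 and 14 of 20 S-phase summits in Seh1cKO cells, control cells at day 1 and progenitors. At some members, among them the S-phase genes E2f1 and Cdc6, the RefSeq start used lies inside the annotated gene. These distances therefore depend on the start taken.

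**Figure D2:**
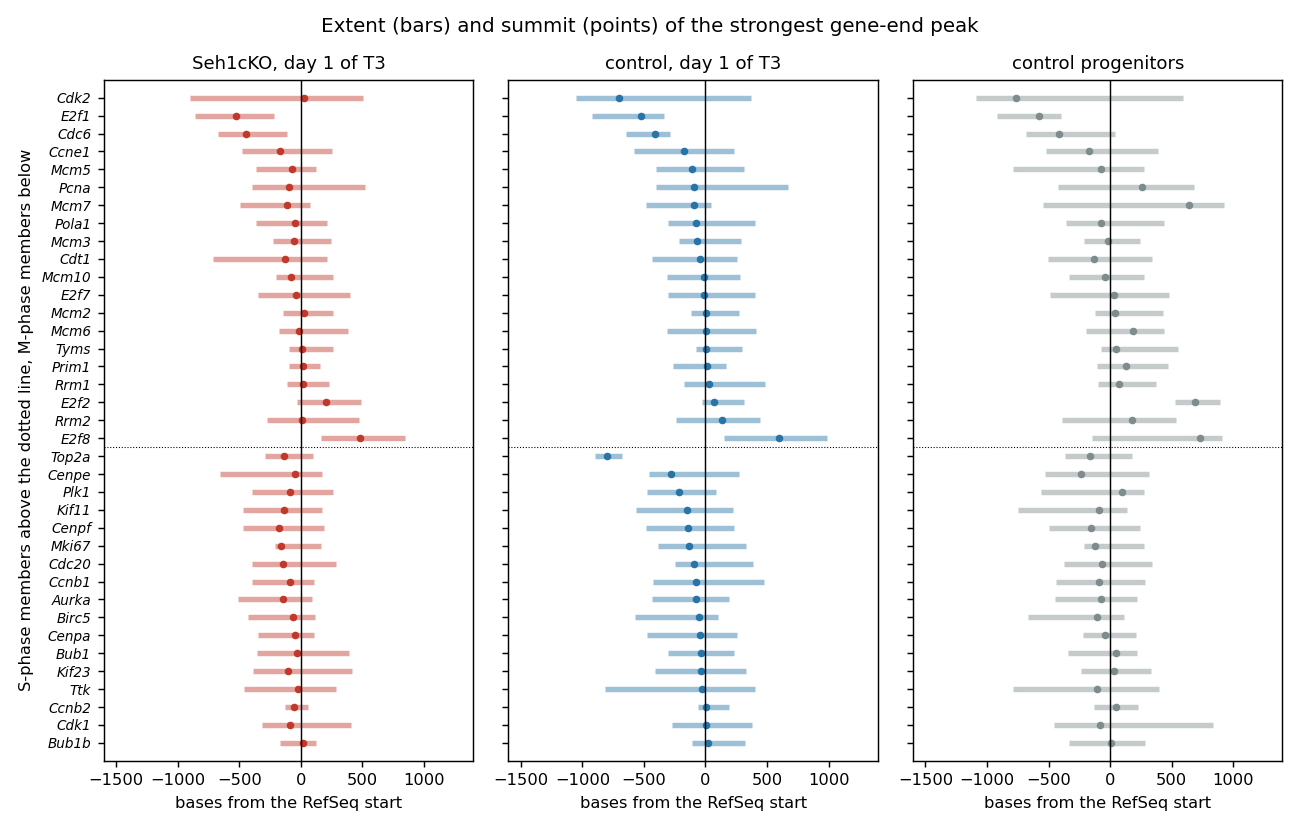
Extent (bars) and summit (points) of the strongest gene-end peak for the 37 members with a RefSeq start, in bases from that start (x axis, negative values upstream), with Seh1cKO cells on the left, control cells at day 1 in the middle and progenitors on the right. Most bars cross the start; the strongest control day 1 peak of Top2a has its summit at -803 bp.

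Some members departed from this pattern. Top2a, the topoisomerase that untangles sister chromatids, had its strongest control day 1 peak at a narrow site with its summit at -803 bp from the start, with 59 fragments, and a second peak of 56 fragments over the start. In Seh1cKO cells and in progenitors its strongest peaks had summits at -137 and -160 bp. The strongest peak of E2f2, an activating E2F factor, lay 202 bp downstream of the start in Seh1cKO cells, 73 bp downstream in control cells at day 1 and 691 bp downstream in progenitors. For these 2 genes the libraries are compared at different sites. The strongest peaks of the other 42 overlapped in the 3 libraries, which does not place their summits at the same site. Cdk2, the kinase partner of cyclin E, had a single broad peak of 1407 bp in Seh1cKO cells, 1427 bp in control cells at day 1 and 1679 bp in progenitors. Its summit lay 28 bp downstream of the start in Seh1cKO cells, at -706 bp in control cells at day 1 and at -767 bp in progenitors. E2f1, E2f8 and Cdc6 had summits away from the RefSeq start in each library. For E2f1 they lay at -528 bp in Seh1cKO cells, -524 bp in control cells at day 1 and -576 bp in progenitors, and for E2f8 at 478, 597 and 729 bp downstream in Seh1cKO cells, control cells at day 1 and progenitors. The RefSeq starts used for these 3 genes lie inside the annotated genes. The strongest peaks of E2f1 and Cdc6 covered an annotated gene end in each library, and those of E2f8 did not.

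Additional gene-end peaks were more frequent in the 2 control libraries. The part of depth in this was not tested. In Seh1cKO cells 2 of 44 members had more than 1 gene-end peak, against 16 in control cells at day 1 and 15 in progenitors. The shares over all genes were not computed for these counts or for the additional peaks below, so they describe the members only. The 20 additional peaks of control cells at day 1 were mostly weak, with a median of 16 fragments, and 6 of them were called in Seh1cKO cells. An exception was Mcm7, another helicase subunit, whose additional peak at chr5:138170971-138171422 had 68 fragments in control cells at day 1, equal to its strongest, and 42 in Seh1cKO cells. It lies downstream of the Mcm7 start and was part of a single peak of 1469 bp in progenitors. The summit of the strongest Mcm7 peak lay at -111 bp in Seh1cKO cells, -90 bp in control cells at day 1 and 637 bp downstream in progenitors. The Mcm7 ratio of control day 1 over progenitors therefore compares different sites.

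The promoters at these gene starts were read for the motifs of the cell cycle. RefSeq sequences for GRCm38.p6, from 250 bases before to 50 after the start, were searched on both strands for the CCAAT box (CCAAT), the CHR element (TTTGAA or TTCGAA) and E2F sites (TTTCCCGC, TTTGGCGC, TTTCGCGC or TTTGCCGC). No motif of 1 class contains a motif of another, and overlapping matches of a class were each counted. S-phase and M-phase members differed in the CHR element and in the E2F site. The CHR element was present in 3 of 20 S-phase promoters (15%), in 14 of 17 M-phase promoters (82.4%) and in 18.2% of all 17492 promoters. The E2F site was present in 10 of 20 S-phase promoters (50%), in 1 of 17 M-phase promoters (5.88%), that of Cdk1, and in 2.94% of all promoters. The CCAAT box was present in 15 of 20 S-phase promoters (75%), in 16 of 17 M-phase promoters (94.1%) and in 39.2% of all promoters.

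Restricting the comparison to genes with a gene-end peak in each of the 3 libraries left the CCAAT box near its background, at 39.9% of 9541 promoters, while the CHR element was less frequent among them, at 13.3%, and the E2F site more frequent, at 4.44%. The members' promoters had a median of 25 CpG dinucleotides in 300 bases, against 13 over all promoters and 21 over those open in each library, and a median GC content of 58.0%, against 56.3% and 61.3%. CHR matches of M-phase promoters clustered near the start: their median position was -18 bases from it, and 15 of 21 matches lay from 100 bases before to 50 after. These matches describe the sequence and do not show binding.

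**Figure D3:**
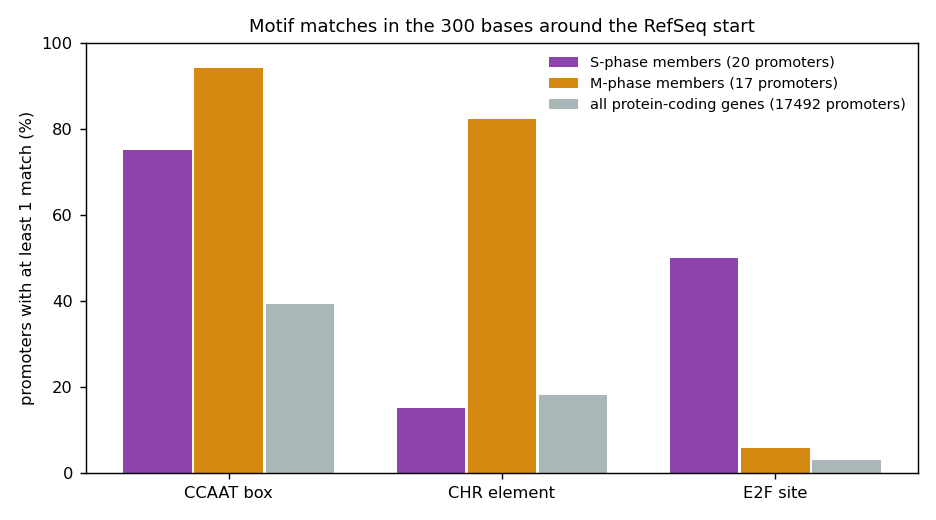
Share of promoters (y axis, percent, from 0) with at least 1 match to each motif, for 20 S-phase members (purple), 17 M-phase members (orange) and all 17492 promoters (grey), in the 300 bases around the RefSeq start. The CHR bar of M-phase members stands at 82.4% and the E2F bar of S-phase members at 50%.

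M-phase promoters are shown first, because the CHR element and clustered CCAAT boxes are what most of them share. The 250 bases before the start are given 5′ to 3′ on the gene's strand, with matches in capitals. Bub1 encodes a spindle checkpoint kinase, Ccnb2 cyclin B2, Cdk1 the kinase that drives entry into mitosis, and Top2a the topoisomerase named above.
Bub1 (chr2:127831860-127832109, minus strand): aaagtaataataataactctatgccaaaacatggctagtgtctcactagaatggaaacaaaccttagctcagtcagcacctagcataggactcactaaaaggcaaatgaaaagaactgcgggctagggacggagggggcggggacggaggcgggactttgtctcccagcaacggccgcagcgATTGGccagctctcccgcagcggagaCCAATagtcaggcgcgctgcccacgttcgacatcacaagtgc
Ccnb2 (chr9:70421555-70421804, minus strand): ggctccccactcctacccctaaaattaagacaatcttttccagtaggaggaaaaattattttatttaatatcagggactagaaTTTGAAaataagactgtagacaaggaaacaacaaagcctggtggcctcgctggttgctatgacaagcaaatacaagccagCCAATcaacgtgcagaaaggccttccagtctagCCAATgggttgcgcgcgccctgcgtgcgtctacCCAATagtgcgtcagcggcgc
Cdk1 (chr10:69352913-69353162, minus strand): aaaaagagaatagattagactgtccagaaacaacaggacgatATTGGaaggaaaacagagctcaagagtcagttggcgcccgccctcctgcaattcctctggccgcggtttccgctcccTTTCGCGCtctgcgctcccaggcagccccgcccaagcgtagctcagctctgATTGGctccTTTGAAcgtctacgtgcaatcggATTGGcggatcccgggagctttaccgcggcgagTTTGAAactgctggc
Top2a (chr11:99024190-99024439, minus strand): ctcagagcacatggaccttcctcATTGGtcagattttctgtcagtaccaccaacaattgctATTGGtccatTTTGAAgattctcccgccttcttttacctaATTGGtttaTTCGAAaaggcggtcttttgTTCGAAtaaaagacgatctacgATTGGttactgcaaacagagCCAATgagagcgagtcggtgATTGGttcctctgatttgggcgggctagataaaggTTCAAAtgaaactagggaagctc

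Top2a carries 6 CCAAT boxes, in the printed orientation or its reverse ATTGG, and 4 CHR elements before its start. Cdk1 carries 3 CCAAT boxes, 2 CHR elements, at -71 and -15, and the E2F site TTTCGCGC at -131, counted in bases from the start to the leftmost base of the match. Ccnb2 carries 3 CCAAT boxes at -87, -54 and -21 and a CHR element at -167, and a second CHR element begins 4 bases after the start. Bub1 has its CHR element 14 bases after the start, outside the printed stretch. The strongest peak covered all 250 printed bases of Bub1 and Cdk1 in each library. It covered all 250 of Top2a in Seh1cKO cells and in progenitors and 0 in control cells at day 1, where the strongest peak lay upstream. For Ccnb2 it covered 132 bases in Seh1cKO cells, 62 in control cells at day 1 and 132 in progenitors.

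The S-phase promoters shown next hold E2F sites, which 10 of 20 S-phase promoters and 1 M-phase promoter shared. Mcm5, Mcm6 and Mcm7 encode subunits of the helicase ring, and Cdk2 the kinase partner of cyclin E.
Cdk2 (chr10:128705052-128705301, minus strand): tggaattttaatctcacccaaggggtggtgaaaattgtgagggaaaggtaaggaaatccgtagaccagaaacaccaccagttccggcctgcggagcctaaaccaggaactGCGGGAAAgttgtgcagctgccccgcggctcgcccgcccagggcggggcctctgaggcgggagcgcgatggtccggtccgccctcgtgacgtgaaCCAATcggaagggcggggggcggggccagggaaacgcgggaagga
Mcm5 (chr8:75109259-75109508, plus strand): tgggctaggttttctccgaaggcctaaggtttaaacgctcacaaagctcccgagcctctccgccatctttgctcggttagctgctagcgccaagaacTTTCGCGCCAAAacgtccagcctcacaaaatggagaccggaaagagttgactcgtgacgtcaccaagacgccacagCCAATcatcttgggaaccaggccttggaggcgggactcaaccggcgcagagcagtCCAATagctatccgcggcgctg
Mcm6 (chr1:128359706-128359955, minus strand): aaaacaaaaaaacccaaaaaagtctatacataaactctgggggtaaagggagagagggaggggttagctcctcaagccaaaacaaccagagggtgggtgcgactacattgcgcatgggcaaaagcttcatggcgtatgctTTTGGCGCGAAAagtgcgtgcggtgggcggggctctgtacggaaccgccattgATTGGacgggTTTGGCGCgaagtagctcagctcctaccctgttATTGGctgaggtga
Mcm7 (chr5:138171884-138172133, minus strand): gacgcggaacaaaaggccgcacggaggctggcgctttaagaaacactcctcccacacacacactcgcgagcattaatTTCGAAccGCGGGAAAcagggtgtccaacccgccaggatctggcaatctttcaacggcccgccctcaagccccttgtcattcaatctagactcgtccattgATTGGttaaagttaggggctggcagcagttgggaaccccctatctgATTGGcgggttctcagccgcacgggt

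In Mcm5 the E2F sites TTTCGCGC and GCGCCAAA overlap, at -153 and -149. Mcm6 holds the overlapping pair TTTGGCGC and GCGCGAAA at -110 and -106 and a further TTTGGCGC at -47. Mcm7 is 1 of 3 S-phase promoters with a CHR match, TTCGAA at -173, next to the E2F site GCGGGAAA at -165. Each of these 3 helicase genes and Cdk2 also has a CCAAT box before its start, the nearest at -22 for Mcm5 and at -45 for Cdk2. The E2f1, Ccne1 and Tyms promoters held none of the 3 motifs in this window, which says only that these letters are absent from it. Among M-phase members the same was found for Birc5. The E2f1 window lay inside the annotated gene, because the RefSeq start used for E2f1 does.

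The comparison of Seh1cKO with control cells, both at day 1 of T3, addressed what loss of Seh1 does to open chromatin during differentiation. Gene-end pileup of the replication and mitosis genes was higher in Seh1cKO cells at most members. The members' median log2 ratio of pileup in FPM was 0.26, against 0.00 over all 12052 genes with a peak in both libraries. It was above 1 at 35 of 44 members, where 50.3% of all genes were. Past 1.5-fold, 8 members were higher in Seh1cKO cells, against a background of 8.89%, and 0 were lower, against 8.68%. The 8 were Bub1, Tpx2, E2f1, Birc5, Ccnb2, Mcm5, Mcm6 and Cdk1. These calls depended on the measure. With pileups summed over all gene-end peaks of a gene, 4 of the 8 (Bub1, Birc5, Ccnb2 and Mcm6) were past 1.5-fold, against a background of 8.5%, and E2f2 and Mki67 were lower past 1.5-fold, against 15.3%. With the fold enrichment deposited by the authors, which sets a summit against its local background, 0 members were higher past 1.5-fold, against 2.59%, and 0 lower, against 8.92%.

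The helicase genes moved together in sign. Mcm2, Mcm3, Mcm4, Mcm5, Mcm6 and Mcm7 all had a higher pileup in FPM in Seh1cKO cells, with log2 ratios of 0.12 to 0.63 and a median of 0.46, except that Mcm3 stood at -0.06 when all gene-end peaks were summed. Mcm5 had 58 fragments (5.35 FPM) in Seh1cKO cells and 63 (3.45 FPM) in control cells at day 1, a ratio of 1.55 with a 95% counting interval of 1.07 to 2.25. Mcm6 had 32 fragments (2.95 FPM) in Seh1cKO cells and 35 (1.92 FPM) in control cells at day 1, a ratio of 1.54 with an interval of 0.923 to 2.56. The loading factors Cdc6 and Cdt1 had log2 ratios of 0.40 and 0.19, and Mcm10, which acts when origins fire, had 0.21. Geminin, which restrains Cdt1, had 1.75 FPM in both libraries.

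Of the genes that start S phase, Cdk2 and Ccne1 were lower in Seh1cKO cells and Ccne2 was higher. Cdk2 had the lowest ratio of the 44, with 23 fragments (2.12 FPM) in Seh1cKO cells and 57 (3.12 FPM) in control cells at day 1, a log2 ratio of -0.56 and a ratio of 0.679 with an interval of 0.399 to 1.12. Ccne1, which encodes cyclin E1, had 50 fragments (4.61 FPM) in Seh1cKO cells and 102 (5.59 FPM) in control cells at day 1, a log2 ratio of -0.28. Ccne2, the gene of cyclin E2, had 42 fragments (3.87 FPM) in Seh1cKO cells and 59 (3.23 FPM) in control cells at day 1, a log2 ratio of 0.26 that was -0.10 with summed gene-end peaks. The Cdk2 peak was broad and its summit lay 28 bp downstream of the start in Seh1cKO cells and at -706 bp in control cells at day 1, so this ratio compares different bases of the same peak.

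The genes of DNA synthesis and nucleotide supply had log2 ratios of both signs. Pcna, the sliding clamp of the polymerases, had 59 fragments (5.44 FPM) in Seh1cKO cells and 89 (4.87 FPM) in control cells at day 1, a log2 ratio of 0.16. Rrm1, the large subunit of ribonucleotide reductase, had 30 fragments (2.77 FPM) in Seh1cKO cells and 56 (3.07 FPM) in control cells at day 1, a log2 ratio of -0.15. Over these 6 genes (Pcna, Rrm1, Rrm2, Tyms, Pola1 and Prim1) the log2 ratios ran between -0.15 and 0.24. The helicase genes Mcm3 and Mcm4, at 0.12 and 0.16, lay within that range. Of the E2F factors, E2f1, an activator, had 50 fragments (4.61 FPM) in Seh1cKO cells and 53 (2.90 FPM) in control cells at day 1, a ratio of 1.59 with an interval of 1.06 to 2.38. E2f7 and E2f8, which repress E2F targets, had log2 ratios of 0.29 and -0.10, and E2f7 stood at -0.26 with summed gene-end peaks.

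Among mitotic genes the highest ratio of all 44 was at Bub1, a kinase of the spindle checkpoint. Bub1 had 27 fragments (2.49 FPM) in Seh1cKO cells and 22 (1.20 FPM) in control cells at day 1, a log2 ratio of 1.05 and a ratio of 2.07 with an interval of 1.13 to 3.81. Its peak at chr2:127831470-127832214 in Seh1cKO cells covers the start of the gene and overlaps the control day 1 peak at chr2:127831625-127832165. Tpx2, which activates Aurora A on the spindle, had 52 fragments (4.79 FPM) in Seh1cKO cells and 49 (2.68 FPM) in control cells at day 1, a ratio of 1.79 with an interval of 1.19 to 2.70. Birc5, which encodes survivin of the chromosomal passenger complex, had 40 fragments (3.69 FPM) in Seh1cKO cells and 43 (2.35 FPM) in control cells at day 1, a ratio of 1.57 with an interval of 0.992 to 2.47.

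The cyclins of mitosis were uneven. Cdk1 had 41 fragments (3.78 FPM) in Seh1cKO cells and 45 (2.46 FPM) in control cells at day 1, a log2 ratio of 0.62. Ccnb1, the gene of cyclin B1, had 52 fragments (4.79 FPM) in Seh1cKO cells and 60 (3.29 FPM) in control cells at day 1, a log2 ratio of 0.55. Ccnb2 had 12 fragments (1.11 FPM) in Seh1cKO cells and 13 (0.712 FPM) in control cells at day 1, a log2 ratio of 0.64 with an interval of the ratio from 0.648 to 3.69. Ccna2 was lower, with 6.09 FPM in Seh1cKO cells and 7.06 in control cells at day 1, a log2 ratio of -0.22. The centromere genes Cenpa, Cenpe and Cenpf had log2 ratios of 0.33, 0.31 and 0.38. The kinesin genes had 0.37 at Kif11, 0.09 at Kif20a and -0.13 at Kif23, the highest of them in control cells at day 1, with 37 fragments in Seh1cKO cells and 68 in control cells at day 1. Aurka, the Aurora A kinase, had 64 fragments (5.90 FPM) in Seh1cKO cells and 90 (4.93 FPM) in control cells at day 1, a log2 ratio of 0.26. Cdc20, the activator of the anaphase-promoting complex, had 34 fragments (3.13 FPM) in Seh1cKO cells and 43 (2.35 FPM) in control cells at day 1, a log2 ratio of 0.41. With summed gene-end peaks Aurka and Cdc20 were both at -0.02.

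**Figure D4:**
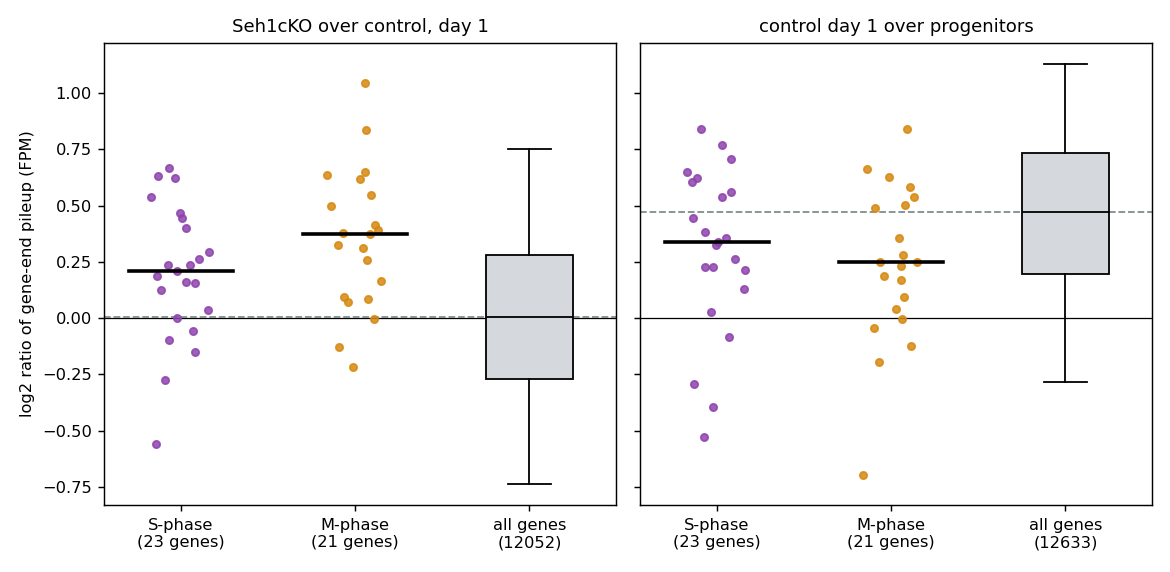
Log2 ratio of gene-end pileup in FPM for S-phase members (purple), M-phase members (orange) and all genes (grey box, with the median, the quartiles and whiskers at the percentiles 5 and 95), Seh1cKO over control cells at day 1 on the left and control day 1 over progenitors on the right. Thick lines are the members' medians, and the dashed line is the median of all genes, which is 0.00 on the left and 0.47 on the right.

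S-phase and M-phase members overlapped widely in this comparison. The median log2 ratio of Seh1cKO over control day 1 was 0.21 over 23 S-phase members, 17 of them above a ratio of 1, and 0.37 over 21 M-phase members, 18 of them above 1. The difference of the medians, -0.16, turned to 0.052 when the pileups of all gene-end peaks of a gene were summed in place of the strongest. The members' height over all genes shrank with the fold enrichment deposited by the authors: the members' median log2 ratio was then 0.034, against -0.10 over all genes, and 25 of 44 members were above 1, where 36.9% of all genes were. Members above a ratio of 1 numbered 26 of 44 with summed pileups, for which the share over all genes was not computed. The median of all genes was then -0.064, and 32 of 44 members lay above it, against 35 of 44 above the median of all genes with the strongest peak. The sign turned to lower in Seh1cKO cells with summed pileups at Aurka, Bub1b, Ccne2, Cdc20, E2f2, E2f7, Mcm3, Mki67 and Top2a, and with fold enrichment at Aurka, Aurkb, Bub1b, Cdt1, Cenpa, Kif20a, Mcm10, Mki67, Pcna and Tyms. Summed pileups move with the number of peaks called, and 2 members had more than 1 gene-end peak in Seh1cKO cells, against 16 in control cells at day 1. The Seh1cKO library is the shallowest of the 3, and the part of depth in these ratios was not tested.

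The comparison of control cells at day 1 with progenitors addressed the first day of differentiation under T3. Here the gene-end pileup in FPM was higher at day 1 for most genes, with a median log2 ratio of 0.47 over all 12633 genes with a peak in both libraries. The members' median was 0.27, so it was positive on this scale and 0.20 below the median of all genes. Above a ratio of 1 lay 35 of 44 members, where 86.3% of all genes did, and above the median of all genes lay 15 of 44, where 49.9% of all genes did. Past 1.5-fold, 9 members were higher at day 1, against a background of 38.7%, and 1, Ccnb2, was lower, against 1.59%. With the deposited fold enrichment 0 members were higher past 1.5-fold, against 9.97%, and 2, Ccnb2 and Tyms, were lower, against 2.17%. Relative to the median of all genes on the pileup scale, 0 members were higher past 1.5-fold, against 6.97%, and 6 were lower, against 9.19%.

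The highest ratios joined genes of S-phase entry, synthesis and mitosis. Ccne1 had 102 fragments (5.59 FPM) in control cells at day 1 and 73 (3.12 FPM) in progenitors, a log2 ratio of 0.84. Ccnb1 had 60 fragments (3.29 FPM) in control cells at day 1 and 43 (1.84 FPM) in progenitors, also a log2 ratio of 0.84. Pcna had 89 fragments (4.87 FPM) in control cells at day 1 and 67 (2.86 FPM) in progenitors, a log2 ratio of 0.77. Rrm1 had 56 fragments (3.07 FPM) in control cells at day 1 and 44 (1.88 FPM) in progenitors, a log2 ratio of 0.71. The counting intervals of these 4 ratios lay above 1 and all included 1.39, the median ratio of all genes, with that of Rrm1 from 1.08 to 2.48. These genes were taken as the highest of the 44, so their height is a description.

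The lowest ratios likewise came from both phases. Ccnb2 had 13 fragments (0.712 FPM) in control cells at day 1 and 27 (1.15 FPM) in progenitors, a log2 ratio of -0.70. Tyms, thymidylate synthase, had 20 fragments (1.10 FPM) in control cells at day 1 and 37 (1.58 FPM) in progenitors, a log2 ratio of -0.53. Gmnn had 32 fragments (1.75 FPM) in control cells at day 1 and 54 (2.31 FPM) in progenitors, a log2 ratio of -0.40. Mcm5 had 63 fragments (3.45 FPM) in control cells at day 1 and 99 (4.23 FPM) in progenitors, a log2 ratio of -0.29. The counting intervals of these 4 ratios, taken as the lowest of the 44, all included 1 and lay below the median ratio of all genes, 1.39, with that of Mcm5 from 0.585 to 1.13. The sign of the Mcm5 ratio turned when all gene-end peaks were summed, with a log2 ratio of 0.14. The Ccnb2 peak overlapped in the 3 libraries and was narrow, at 189 bp in Seh1cKO cells, 254 bp in control cells at day 1 and 360 bp in progenitors.

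Role groups of at least 4 members had medians from 0.23 to 0.34. The helicase genes had a median log2 ratio of control day 1 over progenitors of 0.33, the E2F factors 0.31, and Cdk1 with its cyclins 0.34. Of the 3 centromere genes, Cenpa stood at -0.04 and Cenpf at -0.19, below these medians, and Cenpe at 0.36, above them, though Cenpe was at -0.04 with summed gene-end peaks and Cenpa at 0.08 with fold enrichment. Cenpf had 105 fragments in control cells at day 1 and 154 in progenitors. The median was 0.34 over S-phase members and 0.25 over M-phase members, and the difference of 0.09 turned to -0.030 with the deposited fold enrichment. The comparison with Seh1cKO cells uses the same control day 1 library on its other side, so a high or low value of that library moves both ratios of a gene in opposite directions. Mcm5 and Ccnb2, among the lowest in control day 1 over progenitors, were both past 1.5-fold in Seh1cKO over control day 1, and Ccne1 was among the highest in control day 1 over progenitors and among the lowest in Seh1cKO over control day 1.

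Other genes of the same processes, which are not members, were read in the same way. Of 41 further replication genes, 37 had a gene-end peak in Seh1cKO cells, 38 in control cells at day 1 and 37 in progenitors. Their median log2 ratio of Seh1cKO over control day 1 was 0.03, with 20 of 37 above a ratio of 1, 2 higher past 1.5-fold (Pole2 and Pold1, of the DNA polymerases epsilon and delta) and 2 lower (Orc5, of the origin recognition complex, and Rfc5, of the clamp loader). Over all genes with a peak in both libraries, 50.3% were above 1, 8.89% were higher past 1.5-fold and 8.68% were lower. The same background applies to the calls of the lists that follow. Of 41 further mitosis genes, 40 had a gene-end peak in Seh1cKO cells, 39 in control cells at day 1 and 41 in progenitors. Their median was 0.20, with 28 of 39 above 1, 6 higher past 1.5-fold and 1, Kif4, lower. The largest of these was Racgap1, which acts in cytokinesis, with 36 fragments in Seh1cKO cells, 18 in control cells at day 1 and 43 in progenitors, a log2 ratio of 1.75 for Seh1cKO over control day 1 and -0.90 for control day 1 over progenitors. The 14 genes of E2F partners, pocket proteins and the DREAM core all had gene-end peaks in each library, with a median of 0.14, 11 of 14 above 1 and Rbl1 and Tfdp1 higher past 1.5-fold. For control day 1 over progenitors the medians of the 3 lists were 0.36, 0.39 and 0.55, against 0.47 over all genes.

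Beyond the gene ends, the loci of the 44 members held 82 peaks in Seh1cKO cells, 157 in control cells at day 1 and 138 in progenitors. Of the 157 control day 1 peaks, 83 were also called in Seh1cKO cells, which is 52.9% (exact Clopper-Pearson 95% interval 44.8 to 60.9), against 35.7% over the loci of all protein-coding genes. Split by position, the shares stood nearer to the background. At the members' own gene ends 49 of 64 peaks (76.6%) were called in Seh1cKO cells, against a background of 70%. In gene bodies and flanks, away from any gene end, 15 of 64 (23.4%, interval 13.8 to 35.7) were, against 26.1%. A further 29 control day 1 peaks lay at the end of another gene in the locus, and 19 of them were called in Seh1cKO cells.

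In the other direction nearly all Seh1cKO peaks had a counterpart. Of the 82 peaks of Seh1cKO cells, 79 were called in control cells at day 1, which is 96.3% (89.7 to 99.2), against 84.9% over all loci. Split by position, the count was 46 of 46 at own gene ends, against 93.6%, and 15 of 18 away from any gene end (83.3%, 58.6 to 96.4), against 79.4%. The Seh1cKO list holds 38.9% as many peaks as the control day 1 list, and a share of the longer list found in the shorter one is limited by that. With control day 1 peaks held to a −log10 q of at least 10, 69 of 72 control day 1 peaks, 95.8%, had a counterpart in Seh1cKO cells. The share over all loci at this minimum was not computed, so this value describes the members only.

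Between the control stages, 97 of 157 control day 1 peaks, 61.8% (53.7 to 69.4), were called in progenitors, against 45% over all loci, and 92 of 138 progenitor peaks, 66.7% (58.1 to 74.5), were called in control cells at day 1, against 49.8%. Away from any gene end, 23 of 64 control day 1 peaks were found in progenitors, 35.9% (24.3 to 48.9), against 36.1%. The share found in Seh1cKO cells differed little by phase: 47 of 89 control day 1 peaks of S-phase loci (52.8%, 41.9 to 63.5) and 36 of 68 of M-phase loci (52.9%, 40.4 to 65.2). Between the control stages the shares were higher at S-phase loci. Of control day 1 peaks, 58 of 89 (65.2%) at S-phase and 39 of 68 (57.4%) at M-phase loci were called in progenitors. Of progenitor peaks, 54 of 72 of S-phase loci (75%, 63.4 to 84.5) were called in control cells at day 1. At M-phase loci 38 of 66 (57.6%, 44.8 to 69.7) were. Away from any gene end the counts were 15 of 29 (51.7%) and 7 of 25 (28%). The intervals overlapped, and the difference was not tested.

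**Figure D5:**
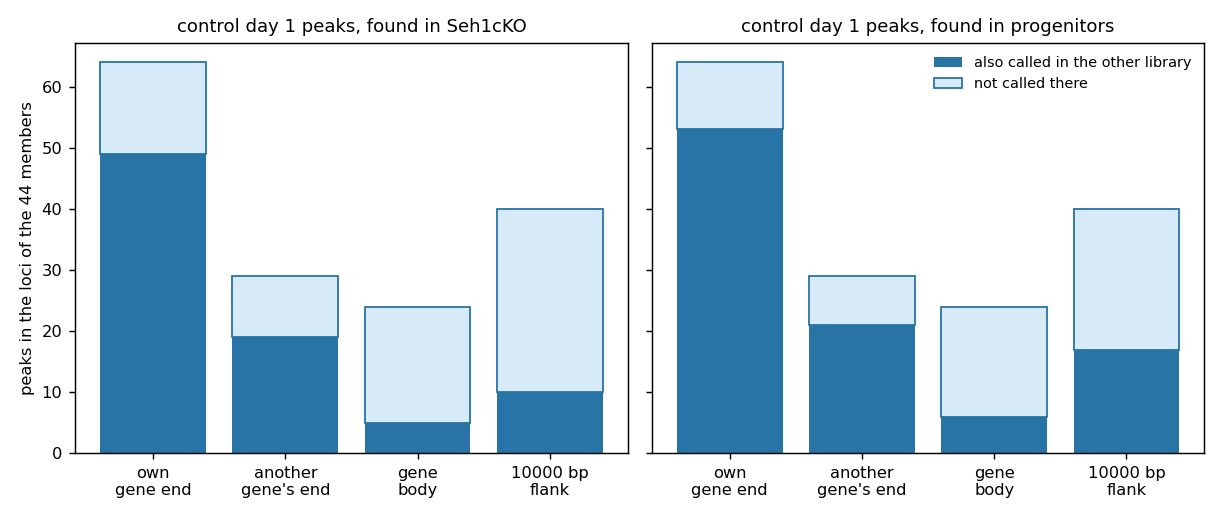
Control day 1 peaks in the loci of the 44 members (y axis, number of peaks, from 0) at the gene's own end, at another gene's end, in the gene body and in the 10000 bp flanks. Dark bars count those also called in Seh1cKO cells (left) or in progenitors (right), and light bars those not called there; in Seh1cKO cells the dark part is 49 of 64 at own gene ends and 10 of 40 in flanks.

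The strongest sites away from gene ends were shared by all 3 libraries. A site in the flank of Pcna, at chr2:132262772-132263543 in Seh1cKO cells, had 60 fragments (5.53 FPM) in Seh1cKO cells, 154 (8.43 FPM) in control cells at day 1 and 115 (4.91 FPM) in progenitors. This site was placed by distance alone and cannot be assigned to Pcna, because an end of Cds2 also lies near the Pcna gene-end peak. Only annotated gene ends were used, so a transcription start inside a gene counts as away from gene ends. A site inside Cenpf, at chr1:189644863-189645602 in Seh1cKO cells, had 35 fragments (3.23 FPM) in Seh1cKO cells, 118 (6.46 FPM) in control cells at day 1 and 108 (4.61 FPM) in progenitors. In FPM both were highest in control cells at day 1, although the gene-end peaks of the same 2 genes were higher in Seh1cKO cells. The Rrm2 locus, of the small subunit of ribonucleotide reductase, held a flank site and a site in the gene body. The flank site had 14 fragments (1.29 FPM) in Seh1cKO cells, 67 (3.67 FPM) in control cells at day 1 and 28 (1.20 FPM) in progenitors. The gene-body site had 16 (1.48 FPM), 50 (2.74 FPM) and 28 (1.20 FPM) in these libraries.

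Peaks in a single library were weak. Of the 64 control day 1 peaks away from gene ends, 40 were found in neither other library, with a median of 11 fragments, and 14 were found in both, with a median of 30. The share of single-library peaks over all loci was not computed for either control library, so these counts are not set against a background. Among the 40 control day 1 peaks, those with most fragments lay in the flanks of Cdc20, at chr4:118446411-118447152 with 20 fragments, and of Aurka, at chr2:172378306-172378606 with 19, and in the gene body of E2f2, at chr4:136180104-136180313 with 19. In progenitors 31 of 54 such peaks were found in neither other library, those with most fragments in the flanks of Aurka, at chr2:172348637-172348792 with 27, of Aurkb, at chr11:69041710-69041848 with 26, and of Kif11, at chr19:37368912-37369357 with 23.

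The members differed in how many peaks their loci held. E2f2 had 2 locus peaks in Seh1cKO cells, 11 in control cells at day 1 and 8 in progenitors. Aurkb, the Aurora B kinase, had 4 in Seh1cKO cells, 8 in control cells at day 1 and 9 in progenitors. Its gene-end peak was low, with 15 fragments in Seh1cKO cells, 24 in control cells at day 1 and 27 in progenitors. Mcm2 had 4 locus peaks in Seh1cKO cells, 8 in control cells at day 1 and 5 in progenitors. Pola1, the catalytic subunit of polymerase alpha, had 2 in Seh1cKO cells, 8 in control cells at day 1 and 5 in progenitors, and 1 of its 8 control day 1 peaks was called in Seh1cKO cells. Cenpe, a kinetochore motor, had 2 in Seh1cKO cells, 6 in control cells at day 1 and 7 in progenitors. The other members had between 1 and 6 locus peaks in any library.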

How the data were processed

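Open chromatin was measured by ATAC-seq in 3 libraries, 1 per group, each with 1 deposited peak table. The submitters' processing notes name Bowtie2, SAMtools, MACS2 and mm10. Peaks were called by MACS 2.1.2_dev, per the file headers, on every library by itself, from paired-end fragments with duplicates retained, against no control, at a q cutoff of 0.05. The authors' deposited values are the pileup signal at each summit in fragments, the fold enrichment (a ratio to local background), and the −log10 of p-value and q-value. Headers of both −log10 columns were damaged, so the columns were recognised from their position and from a recomputed Poisson p, which matched the deposited −log10 p within 0.01 for 99.9% or more of peaks. Shifting of reads for the transposase cut is not stated.

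Gene positions are RefSeq's for GRCm38.p6, which shares mm10 coordinates on its main chromosomes. Per gene, the gene-end peak with the highest pileup was taken and scaled to 1000000 header fragments (FPM). Ratios were formed where both libraries had a peak, and 1.5-fold was the threshold. An overlap of at least 1 bp matched peaks between libraries. Exact 95% Poisson and Clopper-Pearson intervals cover counting error only: PCR copies of fragments were not removed. The gene-end step was tested on simulated data.

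The members and lists were chosen with earlier results of these data known. Full values are given for the 4 highest and 4 lowest members of each comparison, the highest member of each phase and role, and the members with most locus peaks. Other members are named in ranges, for their role, or because a count of 8 or fewer called them. The 8 promoters printed were chosen after their matches were seen, to show the motifs of each phase. Promoters of Mcm4 and Ccna2 were not used here. The tools were Python 3.11.15, pandas 2.3.3, numpy 2.4.6, scipy 1.17.1 and matplotlib 3.10.9.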

Additional observations from a re-analysis of the deposited data

How the results depend on the processing

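The counts of members with a gene-end peak stayed at 40 to 44 of 44 in every library under windows of 500 and 2000 bp, a −log10 q of at least 5 or 10, and lists of equal length. The members' median log2 ratio of Seh1cKO over control day 1, 0.26, was 0.034 with the deposited fold enrichment and 0.12 with pileups summed over gene-end peaks. The medians of all genes under these 2 measures were -0.10 and -0.064. Under the other alternatives the members' median stayed between 0.25 and 0.31. The members' median of control day 1 over progenitors, 0.27, was 0.070 with fold enrichment, against 0.13 over all genes. It was -0.20 when scaled to a median ratio of 1 over all genes, by construction of that scale. Members higher past 1.5-fold in Seh1cKO over control day 1 numbered 8, and 4 with summed pileups and 0 with fold enrichment. The shares over all genes were 8.89%, 8.5% and 2.59% under these measures. For control day 1 over progenitors the members numbered 9, 11 and 0 of 44 under the same measures, against 38.7%, 40.1% and 9.97% of all genes. The difference of S-phase and M-phase medians changed sign with summed pileups for Seh1cKO over control day 1 (0.052 in place of -0.16) and with fold enrichment for control day 1 over progenitors (-0.030 in place of 0.09), and the cause was not tested.

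The share of control day 1 locus peaks present in Seh1cKO cells, 52.9%, was 43.9% with an overlap of at least 50% of both peaks, 61.5% with flanks of 5000 bp, 81.2% and 95.8% at a −log10 q of at least 5 and 10, and 87.4% with lists of equal length. The share present in progenitors, 61.8%, was 47.1%, 86.5%, 95.8% and 86.2% under the overlap, both q minimums and equal lengths. The share of progenitor peaks present in control cells at day 1, 66.7%, was 53.6%, 91.0%, 97.0% and 82.2% under the same 4 alternatives. In these 3 shares the q minimum applied to the list whose peaks are counted. The shares over the loci of all genes were not computed under these alternatives. Leaving out members with a shared or displaced peak and using the RefSeq start alone were alternatives chosen after seeing the data. No paired analysis was possible because each group has 1 library and the labels carry no replicate numbers. No replicate could be left out. Openness below the lowest pileup called in a library was not detectable at its depth.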

Other observations

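Seh1cKO cells can also be set directly against progenitors, a comparison chosen after seeing the data, which shares each library with the comparisons above. The members' median log2 ratio of Seh1cKO over progenitors was 0.56, against 0.48 over all 11975 genes with a peak in both libraries, and 26 of 44 members were above the median of all genes, where 50% of all genes were. The helicase genes had a median of 0.73, with 5 of 6 above the median of all genes, and the centromere genes one of 0.28. The highest member was Ccnb1, with 4.79 FPM in Seh1cKO cells and 1.84 in progenitors, a log2 ratio of 1.38.

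The 3 Seh1cKO locus peaks with no counterpart in control cells at day 1 lay in the flank of Cdc6, at chr11:98925400-98925666 with 14 fragments, in the flank of Gmnn, at chr13:24771830-24771960 with 7, and inside Pola1, at chrX:93429433-93429624 with 9. The Pola1 site was also called in progenitors, with 21 fragments.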
